A study of Mus musculus with 4 samples.

Results

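The DNA replication and S phase genes described here are 43 genes, chosen by name, whose products license and fire replication origins, copy DNA, supply its nucleotides, or switch on and guard S phase. They were chosen with earlier results of these data known. All 43 were found by symbol among the 20837 genes of the deposited count table, and all 43 passed the filter on low counts. They were measured by RNA sequencing in 4 libraries of mouse spleen Treg cells, which are regulatory lymphocytes of the CD4 lineage that restrain immune responses and depend on the transcription factor Foxp3. The 2 WT libraries have the labelled genotype Foxp3YFP-CreKmt2d+/+, and the 2 cKO libraries have Foxp3YFP-CreKmt2dfl/fl, in which the Cre driven by Foxp3 removes loxP-flanked sequence of the histone H3 lysine 4 methyltransferase gene Kmt2d. Both groups therefore carry the Foxp3 YFP-Cre allele. The sources used here do not give age, sex or pooling of the mice. They also do not say if libraries of 1 group are separate mice, so each p-value reflects only how far these libraries vary, possibly for technical reasons. The labels' extraction text is about cultured bone marrow macrophages of a different knockout, in conflict with the fields for tissue, cell type and genotype, and the fields were followed.

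Replication starts at origins that are licensed in G1 phase, when the origin recognition complex with Cdc6 and Cdt1 loads the ring-shaped Mcm2-7 helicase onto DNA. Cdc45 and the GINS complex then turn the loaded ring into an active helicase, and polymerases alpha, delta and epsilon copy the strands behind it. Many of these genes are targets of E2F transcription factors, which are released from the retinoblastoma protein and its relatives as cells pass from G1 to S phase. Resting T cells express little of this machinery, and activated Treg cells that divide express it strongly.

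Total counts per library ranged from 28442416 to 35560491. Levels are CPM, the reads of a gene relative to the total of its library, scaled by TMM factors. In CPM, 3 counts correspond to 0.0864 to 0.103 depending on the library. The level of Kmt2d was 721 CPM in WT 1, 704 in WT 2, 836 in cKO 1 and 793 in cKO 2 (log2 fold change 0.19, SE 0.05, adjusted p in edgeR 0.0375). That call was lost without WT 1 (adjusted p = 0.109), WT 2 (0.148), cKO 1 (0.237) or cKO 2 (0.0951) and with RLE scaling (0.0556), and since reads from exons that are not deleted also count, this level does not check the labels. Foxp3 was detected in every library, at 278 and 250 CPM in WT and 170 and 180 CPM in cKO. It was called lower in cKO (log2 fold change -0.59, SE 0.07, adjusted p in edgeR 0.00493). None of 12 Treg and T cell marker genes was at 0 in any library. The same held for the marker lists of other cell types given below, except the erythroid list, so detection does not check which cells were sequenced.

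In the libraries labelled cKO most of the replication genes were raised, and 1 was lowered. Of the 43 members, 32 rose, 1 (the licensing factor gene Cdt1) fell and 10 were not called (edgeR quasi-likelihood test, adjusted p under 0.05 over 13861 genes). Over all tested genes, 16.5% were called higher and 15.1% lower. The median log2 fold change of the members was 0.43, beside 0.0003 for all tested genes, and the members ran from -0.50 (Cdt1) to 1.61 (E2f7). The sizes were moderate: 1 member changed at least 2-fold, 14 rose between 1.5-fold and 2-fold, and 28 changed less than 1.5-fold in either direction. Both cKO libraries lay above both WT libraries for 39 members, as they did for 35.1% of all tested genes, and below both for 2 members (Cdt1 and Rpa1; 30.9% of all tested genes). The groups overlapped only for Gins4 and Pcna. Without WT 1 fewer members rose (median log2 fold change 0.40), while 22 of the 33 calls held in every alternative run.

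**Figure D1:**
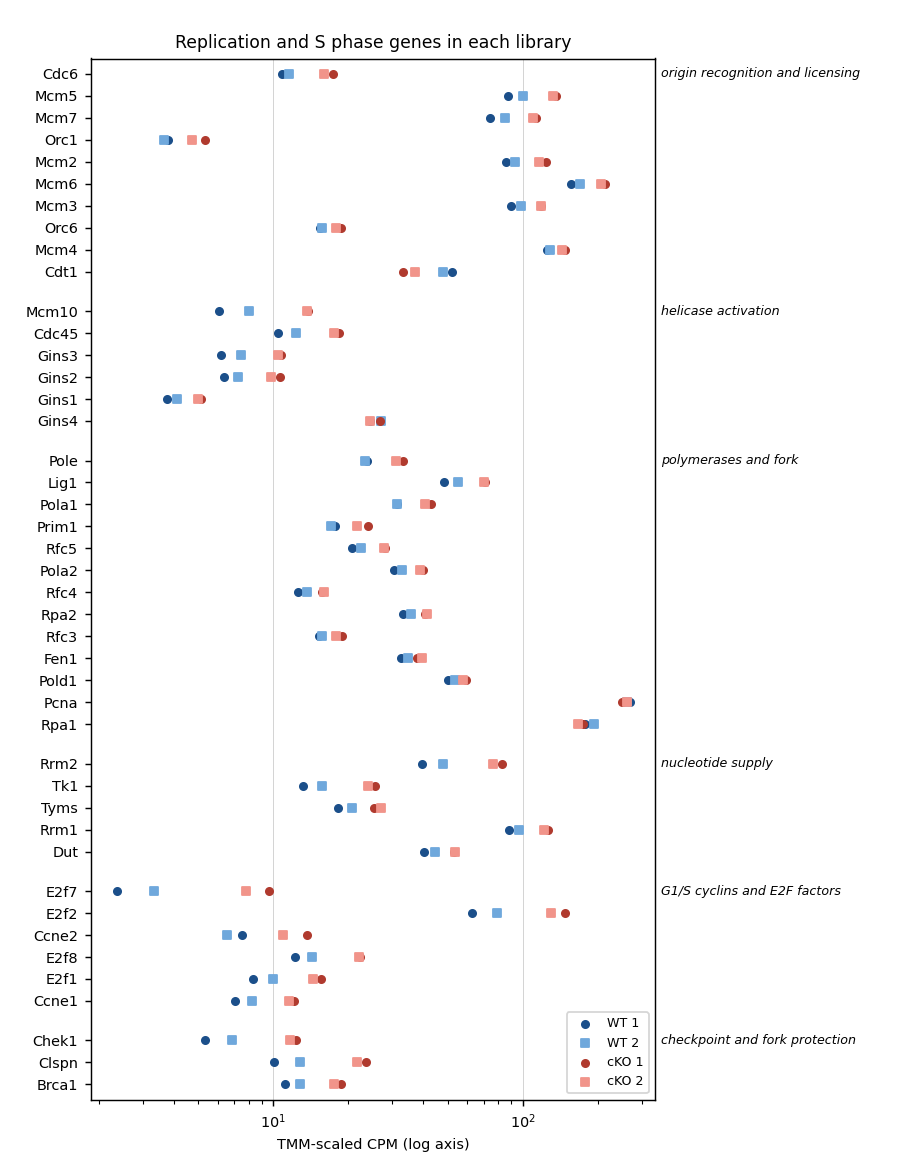
TMM-scaled CPM (log axis) of the 43 replication and S phase genes in WT 1, WT 2, cKO 1 and cKO 2, 1 row per gene, grouped by role and ordered by fold change within a role. The red cKO points lie to the right of the blue WT points for 39 genes, to the left for Cdt1 and Rpa1, and among them for Gins4 and Pcna.

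**Figure D2:**
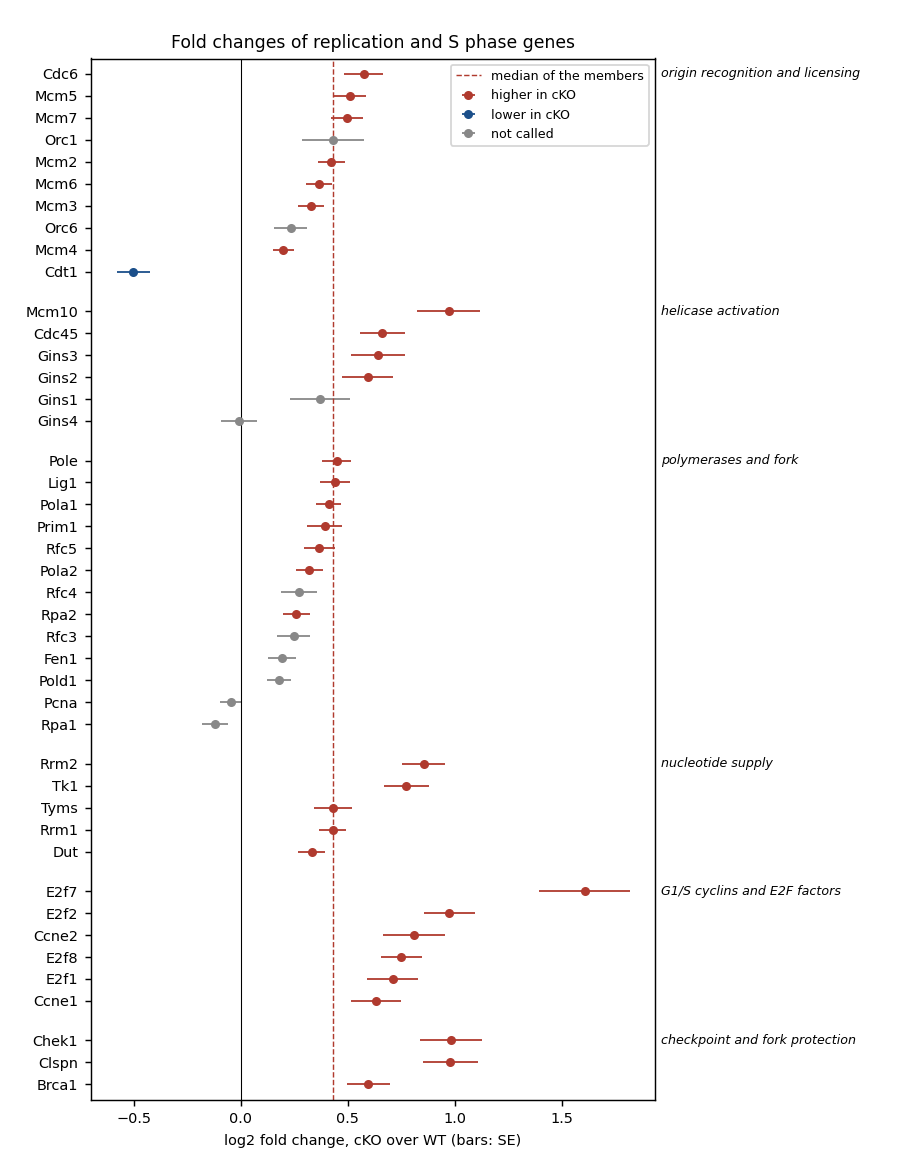
Log2 fold change of cKO over WT with its standard error (bars) for the same 43 genes in the same order. Colour gives the call (32 higher, 1 lower, 10 not called at an adjusted p of 0.05), and the dashed line is the median of the members, 0.43.

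What the members share in sequence was read from their promoters. RefSeq promoter windows of 300 bases (250 before to 50 after a start, GRCm38.p6) were at hand for 37 of the 43 members. They were searched on both strands, with overlapping matches counted, for the E2F letters TTTCCCGC, TTTCGCGC, TTTGCCGC and TTTGGCGC, and 15 of the 37 members (40.5%) had a match in at least 1 window. The share was 4.62% of the 10854 tested genes with a window and 2.6% of all 27025 genes with one. The letters TTTGAA, known as the core of the cell cycle homology region (CHR) of mitotic genes, were in 16.2% of the members, 15.1% of the tested genes and 78.1% of 32 mitosis genes, and the E2F letters were in 3.12% of those mitosis genes. The CCAAT letters, the binding sequence of NF-Y, were in 62.2% of the members, 75% of the mitosis genes and 42.9% of the tested genes. These are matches of letters, not measured binding, and a gene with several windows had more bases searched. The 15 members with E2F letters had a median log2 fold change of 0.44 (11 higher, 1 lower, 3 not called) and the 22 without them 0.43 (17 higher, 0 lower, 5 not called).

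**Figure D3:**
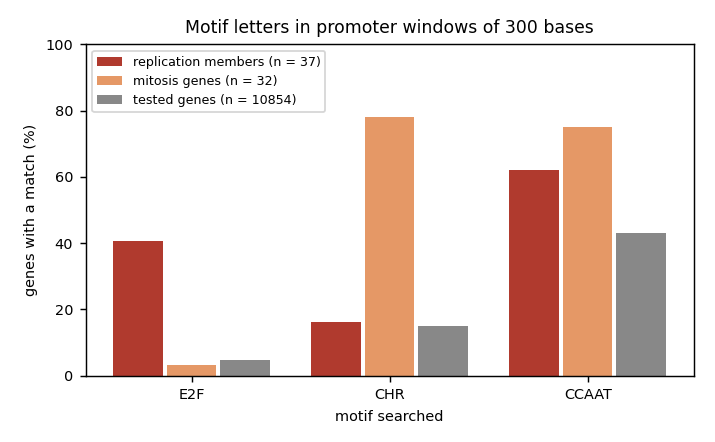
Percentage of genes with at least 1 match of the E2F, CHR or CCAAT letters in their RefSeq promoter windows of 300 bases, for 37 replication members, 32 mitosis genes and 10854 tested genes. E2F letters were found in 40.5% of the members and 3.12% of the mitosis genes, and CHR letters in 16.2% and 78.1%.

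Promoter windows of 4 members are shown because they cover the range of the data: Mcm6, the member with the most E2F matches and a called rise, E2f7, with the largest rise, Cdt1, with the only fall, and Pcna, without a change that passed. They are written 5′ to 3′ on the strand of the gene, from RefSeq GRCm38.p6, with E2F letters of either strand in capitals. Mcm6 lies on the minus strand (chr1:128359656-128359955), E2f7 on the plus strand (chr10:110745189-110745488), Cdt1 on the plus strand (chr8:122567765-122568064) and Pcna on the minus strand (chr2:132253131-132253430).
Mcm6: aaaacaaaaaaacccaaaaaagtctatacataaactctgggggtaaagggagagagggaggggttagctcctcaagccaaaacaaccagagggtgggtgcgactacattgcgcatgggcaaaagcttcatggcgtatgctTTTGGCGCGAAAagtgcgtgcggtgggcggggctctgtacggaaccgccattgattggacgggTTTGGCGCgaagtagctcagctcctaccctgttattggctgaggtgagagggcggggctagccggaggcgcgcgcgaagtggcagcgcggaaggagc
E2f7: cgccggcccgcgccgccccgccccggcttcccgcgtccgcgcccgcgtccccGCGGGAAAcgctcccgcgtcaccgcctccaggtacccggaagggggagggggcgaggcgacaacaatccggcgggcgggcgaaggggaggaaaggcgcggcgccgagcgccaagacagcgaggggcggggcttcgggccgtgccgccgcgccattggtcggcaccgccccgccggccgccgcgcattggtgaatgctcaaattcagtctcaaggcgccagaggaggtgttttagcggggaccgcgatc
Cdt1: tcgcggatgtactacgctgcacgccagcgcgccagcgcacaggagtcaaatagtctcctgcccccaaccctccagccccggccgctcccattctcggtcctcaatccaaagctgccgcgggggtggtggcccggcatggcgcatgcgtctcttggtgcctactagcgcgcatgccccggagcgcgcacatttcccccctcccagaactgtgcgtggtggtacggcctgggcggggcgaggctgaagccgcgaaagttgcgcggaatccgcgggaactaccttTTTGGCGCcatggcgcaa
Pcna: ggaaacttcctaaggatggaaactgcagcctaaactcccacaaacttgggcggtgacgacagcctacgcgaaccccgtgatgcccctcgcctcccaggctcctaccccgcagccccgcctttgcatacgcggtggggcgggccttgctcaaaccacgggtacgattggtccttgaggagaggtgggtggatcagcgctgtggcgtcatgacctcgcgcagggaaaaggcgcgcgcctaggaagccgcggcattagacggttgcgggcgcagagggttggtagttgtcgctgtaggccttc
Mcm6 has 3 matches, of which 2 overlap on opposite strands 110 and 106 bases before the start and 1 begins 47 bases before it. E2f7 has 1 match, 198 bases before its start, and Cdt1 has 1, 32 bases after its start. The Pcna window holds none of these letters. The letters thus stood in genes that rose and in the gene that fell.

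Origin recognition and licensing genes were mostly higher, with Cdt1 as the exception. Of 10 such members, 7 rose, 1 fell and 2 were not called, with a median log2 fold change of 0.39. Cdc6 (chromosome 11, 98907709 to 98923942), the ATPase that helps load the helicase, measured 10.8 and 11.6 CPM in WT and 17.4 and 16.04 CPM in cKO. Both cKO libraries lay above both WT libraries, a log2 fold change of 0.57 (SE 0.09, adjusted p in edgeR 0.00819). Cdt1 (chromosome 8, 122568015 to 122573130), which brings the helicase to the origin and is destroyed once S phase begins, measured 51.9 and 47.7 CPM in WT and 33.2 and 37.2 CPM in cKO. Both cKO values were under both WT values, a log2 fold change of -0.50 (SE 0.08, adjusted p in edgeR 0.00793), and the call held in each alternative run. Geminin, the inhibitor that binds Cdt1 in S and G2 phase, is encoded by Gmnn, which is not a member. Gmnn went the other way and rose from 12.7 ± 1.76 to 19.9 ± 0.317 CPM (SD, n = 2), a log2 fold change of 0.64 (SE 0.11, adjusted p in edgeR 0.00999).

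Orc1, the ATPase subunit of the origin recognition complex, measured 3.80 and 3.64 CPM in WT and 5.33 and 4.72 CPM in cKO, short of the threshold (log2 fold change 0.43, SE 0.15, adjusted p in edgeR 0.0739). Orc6, its smallest subunit, measured 15.4 and 15.7 CPM in WT and 18.8 and 17.8 CPM in cKO (log2 fold change 0.23, SE 0.08, adjusted p in edgeR 0.0674). For both subunits the cKO libraries lay above the WT libraries without the test being passed. Orc6 shares 171 exon bases with Vps35 on the opposite strand.

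All 6 subunit genes of the Mcm2-7 helicase rose, by log2 fold changes between 0.20 (Mcm4) and 0.51 (Mcm5), with both cKO libraries above both WT libraries for each. Mcm5 (chromosome 8, 75109468 to 75128439) measured 87.6 and 101 CPM in WT and 136 and 132 CPM in cKO (SE 0.08, adjusted p in edgeR 0.00721). Mcm7 was close behind at 0.50 (SE 0.07), followed by Mcm2 at 0.42, Mcm6 at 0.37 and Mcm3 at 0.33. Mcm4 measured 125 and 128 CPM in WT and 147 and 144 CPM in cKO (SE 0.05, adjusted p in edgeR 0.0266). Its call was lost without WT 1 (adjusted p = 0.124), WT 2 (0.0782), cKO 1 (0.165) or cKO 2 (0.0995) and with DESeq2 (0.0811), and that of Mcm3 without WT 1 (0.0553) or cKO 1 (0.0511). The ring contains the subunits in equal number. Per kilobase of annotated exon, the mean WT levels ran from 12.9 RPKM (Mcm2) over 17.9 (Mcm7), 23.6 (Mcm5), 25.2 (Mcm3) and 34.9 (Mcm6) to 35.4 RPKM (Mcm4). The lengths pool the exons of all annotated transcripts of a gene, which need not all be expressed. Mcm2 and Mcm3 had similar mean WT levels of 89.4 and 94.4 CPM, and their RPKM differ through lengths of 6956 and 3752 bases. The subunits with the highest level per length in WT, Mcm4 and Mcm6, were among the 3 with the smallest rises.

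Among the genes that activate the helicase, Gins4 was the exception, with groups that overlapped. Of 6 members, 4 rose and 2 were not called, with a median log2 fold change of 0.62. Mcm10 (chromosome 2, 4990724 to 5012791), a scaffold needed to start unwinding, measured 6.05 and 8.01 CPM in WT and 13.8 and 13.7 CPM in cKO. The cKO libraries were nearly equal and both above WT, a log2 fold change of 0.97 (SE 0.15, adjusted p in edgeR 0.00735). Cdc45, the partner of GINS and Mcm2-7 in the moving helicase, rose by 0.66 on the log2 scale (SE 0.10). The median of this role was above the 0.39 of the 6 ring genes, a difference that was not tested.

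The GINS complex consists of 4 different subunits, and their genes had unlike values, a difference that was not tested. Gins3 rose by 0.64 on the log2 scale (SE 0.13, adjusted p in edgeR 0.0149) and Gins2 by 0.59 (SE 0.12, adjusted p = 0.0159). The Gins3 call was lost without WT 1 (adjusted p in edgeR 0.0676) or cKO 1 (0.0637), and the Gins2 call without WT 1 (0.0812) or cKO 1 (0.0835) and with DESeq2 (0.0537). Gins1 measured 3.75 and 4.13 CPM in WT and 5.16 and 5.01 CPM in cKO, with both cKO libraries higher, and did not pass (log2 fold change 0.37, SE 0.14, adjusted p in edgeR 0.1001). Gins4 measured 24.5 and 27.01 CPM in WT and 26.9 and 24.4 CPM in cKO, so that the groups overlapped (log2 fold change -0.01, SE 0.09, adjusted p in edgeR 0.962). The sign of the Gins4 value turned with upper-quartile scaling (0.019) and without WT 2 (0.061) or cKO 2 (0.058). Per kilobase of exon the mean level of Gins4 in WT was 19.1 RPKM, beside 1.65 for Gins2, 2.52 for Gins3 and 2.60 RPKM for Gins1, so it stood apart from its partners in level as well. Gins2 shares 2758 exon bases, 67.3% of its annotated exons, with Gse1 on the opposite strand. Gse1 fell by 0.67 on the log2 scale (adjusted p in edgeR 0.00412), and without knowledge of strand the reads of these genes cannot be told apart.

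Polymerase and fork genes had the lowest median of the 6 roles. Of 13 members, 7 rose, 0 fell and 6 were not called, with a median log2 fold change of 0.27. Pole (chromosome 5, 110286319 to 110337468), the catalytic subunit of the leading strand polymerase epsilon, measured 23.8 and 23.3 CPM in WT and 33.1 and 31.2 CPM in cKO. The groups were apart, with a log2 fold change of 0.45 (SE 0.07, adjusted p in edgeR 0.00708). Lig1, the ligase that joins Okazaki fragments, rose by 0.44 on the log2 scale (SE 0.07), and Pola1, the catalytic subunit of polymerase alpha, by 0.41 (SE 0.06). The other called members of this role rose less: the primase gene Prim1 by 0.39, the clamp loader gene Rfc5 by 0.37, the polymerase alpha subunit gene Pola2 by 0.32 and Rpa2, a subunit of the single strand binding complex RPA, by 0.26. These 4 calls rest on few libraries. Without cKO 1 the edgeR adjusted p was 0.0996 for Prim1, 0.0667 for Rfc5, 0.0800 for Pola2 and 0.0973 for Rpa2, and without WT 1 it was 0.0654, 0.0795, 0.0846 and 0.133. They were also lost without WT 2 for Prim1 (0.0764) and without cKO 2 for Rfc5 (0.0556), Pola2 (0.0526) and Rpa2 (0.128), and DESeq2 called none of them.

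The abundant fork genes Pcna and Rpa1 did not follow the majority. Pcna (chromosome 2, 132249286 to 132253180), the sliding clamp that holds polymerases on DNA, measured 268 and 261 CPM in WT and 251 and 262 CPM in cKO. The groups overlapped and the log2 fold change was -0.05 (SE 0.05, adjusted p in edgeR 0.564). Rpa1, the large RPA subunit, measured 178 and 194 CPM in WT and 175 and 167 CPM in cKO, with both cKO libraries below WT and a log2 fold change that did not pass (-0.12, SE 0.06, adjusted p in edgeR 0.193). Its partner Rpa2 had a positive value (above), so the values of Rpa1 and Rpa2 differed in sign, a difference that was not tested. With a level per exon length of 110 RPKM in WT, Pcna was the most abundant of the 43 members per length.

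The remaining members of the fork that were not called all had positive values. Pold1, the catalytic subunit of the lagging strand polymerase delta, measured 50.1 and 53.5 CPM in WT and 59.3 and 57.9 CPM in cKO (log2 fold change 0.18, SE 0.06, adjusted p in edgeR 0.0588). The clamp loader gene Rfc3 measured 15.3 and 15.7 CPM in WT and 18.9 and 17.9 CPM in cKO (0.25, SE 0.08, adjusted p in edgeR 0.0585). Its partner Rfc4 measured 12.6 and 13.7 CPM in WT and 15.7 and 16.02 CPM in cKO (0.27, SE 0.08, adjusted p in edgeR 0.0579). In all 3 genes the cKO libraries lay above the WT libraries by a small margin. Pold1 and Rfc4 passed with upper-quartile scaling (adjusted p in edgeR 0.0469 and 0.0494), and all 3 with a filter of 5 CPM in 2 libraries (0.0454, 0.0477 and 0.0459 in the order Pold1, Rfc3, Rfc4). Fen1, the nuclease that trims Okazaki fragments, measured 32.6 and 34.8 CPM in WT and 37.6 and 39.5 CPM in cKO (0.19, SE 0.06, adjusted p in edgeR 0.0706). On the opposite strand it shares 1909 exon bases (78.8%) with Gm10143, which is absent from the count table. Another 130 are shared with Tmem258, which rose (log2 fold change 0.19, adjusted p in edgeR 0.0485).

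All 5 nucleotide supply genes rose, with a median log2 fold change of 0.43. Rrm2 (chromosome 12, 24708254 to 24714146), the S phase subunit of ribonucleotide reductase, measured 39.6 and 47.9 CPM in WT and 82.4 and 75.8 CPM in cKO. The cKO libraries stood well above WT, a log2 fold change of 0.85 (SE 0.10, adjusted p in edgeR 0.00508). Its large subunit Rrm1, which is less tied to S phase, rose by 0.43 (SE 0.06), from 88.1 and 96.5 CPM to 127 and 122 CPM. Tk1, the cytosolic thymidine kinase, rose by 0.77 (SE 0.10) and Tyms, which makes thymidylate, by 0.43 (SE 0.09). Dut, the dUTPase that keeps uracil out of DNA, measured 40.4 and 44.4 CPM in WT and 53.2 and 53.6 CPM in cKO and had the smallest value of this role (log2 fold change 0.33, SE 0.06, adjusted p in edgeR 0.0132). The call of Tyms was lost without WT 1 (adjusted p in edgeR 0.0813) or cKO 2 (0.0728) and that of Dut without WT 1 (0.0655), cKO 1 (0.0524) or cKO 2 (0.0595).

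The 6 cyclin E and E2F members, regulators of entry into S phase, rose, with a median log2 fold change of 0.78. Of the 8 E2F genes in all lists, 4 rose (the members) and 4 were not called. E2f7 (chromosome 10, 110745439 to 110787384), an atypical E2F that represses E2F targets, measured 2.36 and 3.35 CPM in WT and 9.59 and 7.76 CPM in cKO. Both cKO libraries were above both WT libraries, a 3.05-fold rise (log2 fold change 1.61, SE 0.21, adjusted p in edgeR 0.00564), and the call held in each alternative run. Its relative E2f8, also a repressor, rose by 0.75 (SE 0.10), from 12.2 and 14.3 CPM to 22.4 and 22.1 CPM. The activators E2f2 and E2f1 rose by 0.97 (SE 0.12) and 0.71 (SE 0.12), so these members included activators and repressors. The E2F genes outside the members that were not called are the activator gene E2f3 (0.22, SE 0.09, adjusted p in edgeR 0.119) and E2f4 (0.03), E2f5 (0.12) and E2f6 (0.18), which are known mainly as repressors. E2f2 measured 62.6 and 78.6 CPM in WT and 147 and 130 CPM in cKO, and per kilobase of exon its mean WT level of 14.5 RPKM was the highest of the 4 E2F members. Ccne2, a cyclin E gene, measured 7.49 and 6.56 CPM in WT and 13.7 and 11.01 CPM in cKO (log2 fold change 0.81, SE 0.15). Ccne1, the other cyclin E gene, measured 7.06 and 8.27 CPM in WT and 12.1 and 11.6 CPM in cKO and had the smallest value of this role (0.63, SE 0.12, adjusted p in edgeR 0.0122). Its call was lost without WT 1 (adjusted p in edgeR 0.0598) or cKO 1 (0.0561). Ccne2 shares 609 exon bases (17.4%) with Ints8 on the opposite strand, which did not pass (log2 fold change 0.03).

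The 3 checkpoint and fork protection genes rose. Chek1 (chromosome 9, 36708482 to 36726658), the kinase that restrains origin firing under replication stress, measured 5.36 and 6.86 CPM in WT and 12.4 and 11.7 CPM in cKO, a log2 fold change of 0.98 (SE 0.14, adjusted p in edgeR 0.00683). Clspn, the adaptor that hands the signal to that kinase, measured 10.1 and 12.9 CPM in WT and 23.6 and 21.6 CPM in cKO, also 0.98 (SE 0.13). Brca1, which protects stalled forks and acts in recombination repair, measured 11.2 and 12.8 CPM in WT and 18.7 and 17.5 CPM in cKO (0.60, SE 0.10, adjusted p in edgeR 0.00910). In all 3 both cKO libraries were above both WT libraries, and the calls held in each alternative run.

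Ranked by mean level, the 14 least abundant members (4.37 to 15.03 CPM) had a median log2 fold change of 0.64. The middle 15 (16.9 to 42.5 CPM) had 0.37 and the 14 most abundant (47.9 to 260 CPM) had 0.39. All tested genes in the same 3 ranges had medians of 0.05, 0.01 and -0.04. These are descriptions, with no test of a trend.

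Replication genes outside the 43 were also more often called higher than lower. The shares of all tested genes were 16.5% higher and 15.1% lower. Of 66 genes in 5 further lists 65 were in the table and tested: 35 rose, 2 (Donson and Tk2) fell and 28 were not called, with a median log2 fold change of 0.28. DESeq2 called 23 of them higher, beside 1301 of the 14373 genes it tested. Fewer of them also rose when any 1 library was left out. In the list of other origin licensing and firing genes, 5 of 13 rose and 7 were not called (median 0.07). Ticrr, which helps load Cdc45, rose by 0.80 (SE 0.10) and Topbp1, its partner, by 0.27 (SE 0.05), whereas Donson, a factor of helicase assembly, fell from 55.5 ± 1.06 to 43.1 ± 0.597 CPM (SD, n = 2; -0.36 on the log2 scale, SE 0.05, adjusted p in edgeR 0.00620). Of 19 other polymerase and fork genes, 9 rose, 0 fell and 10 were not called (median 0.19), with Dna2, a nuclease and helicase of Okazaki fragment processing, at 0.94 (SE 0.11) and Atad5, which unloads the clamp, at 0.54 (SE 0.08). Rpa3, the small RPA subunit, rose by 0.38 (SE 0.08) and the clamp loader gene Chtf18 by 0.44 (SE 0.11). Of the named calls, 3 were lost when libraries were left out. The adjusted p in edgeR was then 0.0640 (WT 1), 0.0693 (WT 2) and 0.107 (cKO 1) for Topbp1. It was 0.110 (WT 1), 0.111 (cKO 1) and 0.0618 (cKO 2) for Rpa3, and 0.135 (WT 1), 0.0504 (WT 2), 0.123 (cKO 1) and 0.108 (cKO 2) for Chtf18. DESeq2 called neither Rpa3 (0.123) nor Chtf18 (0.178).

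Of 12 other nucleotide supply genes, 6 rose, 1 fell and 5 were not called (median 0.24). Of all tested genes, 16.5% were called higher and 15.1% lower. Shmt1, an enzyme of folate metabolism, rose by 0.66 on the log2 scale (SE 0.10). Cad, which starts pyrimidine synthesis, and the nucleoside diphosphate kinase gene Nme1 each rose by 0.33 on the log2 scale (SE 0.05 and 0.06). The call of Nme1 was lost without WT 1 (adjusted p in edgeR 0.0555) or cKO 2 (0.0528). The mitochondrial thymidine kinase gene Tk2 fell by 0.28 (log2; SE 0.08, adjusted p in edgeR 0.0481), a call lost without WT 2 (0.175), cKO 1 (0.181) or cKO 2 (0.0682) and with upper-quartile scaling (0.0644). Its cytosolic counterpart Tk1 rose, as given above. Of 8 chromatin replication genes, 6 rose and 2, the histone mRNA and histone chaperone genes Slbp (0.04) and Nasp (-0.07), were not called (median 0.51). Asf1b and Chaf1a, which place histones on new DNA, rose by 0.73 (SE 0.09) and 0.79 (SE 0.12), and Uhrf1, which guides maintenance DNA methylation, by 0.72 (SE 0.09). The chromatin remodeler gene Hells rose by 0.73 (SE 0.10). Of 13 S phase repair and checkpoint genes tested, 9 rose and 4 (Fanci, Blm, Usp1 and Atr) were not called (median 0.56). Cdc25a, the phosphatase that activates the S phase kinase, rose by 0.62 on the log2 scale (SE 0.09). The repair genes Fancd2 and Rbbp8 rose by 0.66 (SE 0.11) and 0.43 (SE 0.07), calls that were lost without WT 1 (adjusted p in edgeR 0.0522 and 0.0548).

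Nearly all mitosis genes were called higher, beside 16.5% of all tested genes. Of 36 mitosis genes, 35 rose, 0 fell and Cenpa (-0.05, SE 0.10) was not called, with a median log2 fold change of 0.91 beside 0.43 for the 43 replication genes. The 35 that rose began at 0.54, above the member median. Mki67, the marker of cycling cells, had a log2 fold change of 0.96 (SE 0.10) and the kinesin gene Kif23 of 0.82 (SE 0.09). Among the replication members, E2f7, Chek1, Clspn, E2f2 and Mcm10 had values of at least the median of the mitosis genes. The difference between the lists was not tested, and a share of cycling cells and RNA per cell cannot be told apart in bulk libraries.

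**Figure D4:**
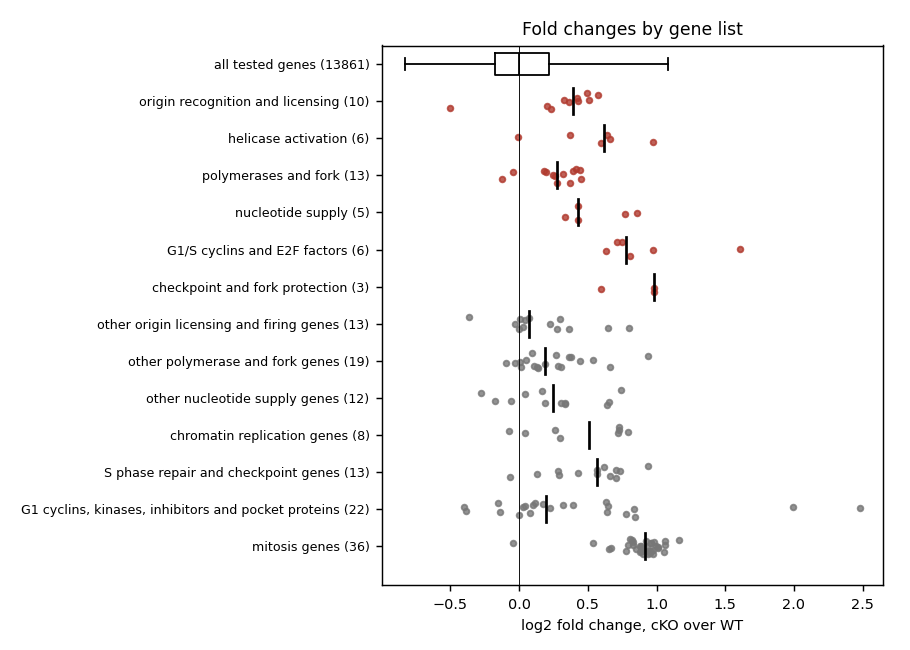
Log2 fold changes of cKO over WT by gene list, with the number of genes tested in brackets, 1 point per gene and a black bar at each list's median (red for the roles of the 43 members, grey for other lists). The box is the middle 50% of all tested genes and its whiskers the 5th to 95th percentiles; the medians are 0.27 for polymerases and fork, 0.78 for G1/S cyclins and E2F factors and 0.91 for mitosis genes.

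The members also differed between libraries of 1 group in a common direction. WT 2 was above WT 1 for 37 of 43 members (54.0% of all tested genes), with a median log2 ratio of 0.13, and cKO 1 was above cKO 2 for 36 (50.3% of all tested genes), with a median log2 ratio of cKO 2 over cKO 1 of -0.06. The summed level of the members was 1847 and 1989.9 CPM in WT 1 and WT 2 and 2438 and 2366 CPM in cKO 1 and cKO 2. Summed this way, the differences within a group were smaller than the gap between the groups. The exceptions within WT were Orc1, Cdt1, Prim1, Pole, Pcna and Ccne2.

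Markers of other cell types moved with the groups as well. The counts of markers that rose stand beside 16.5% of all tested genes called higher. The summed level of 12 neutrophil markers was 77.9 and 198 CPM in WT and 613 and 1353 CPM in cKO, and all 12 rose. The 10 markers of myeloid progenitors, which are cycling cells in part, summed to 87.3 and 99.98 CPM in WT and 176 and 238 CPM in cKO. Of the 10, 8 rose, with a median log2 fold change of 2.84, larger than the change in the sum, which follows the most abundant markers. Among these Mpo and Elane, which mark neutrophil precursors, were detected in every library, with Mpo at 4.58 and 14.1 CPM in WT and 53.6 and 86.9 CPM in cKO. Basophil and mast cell markers (6 of 6 rose) summed to 1.56 and 3.61 CPM in WT and 19.4 and 33.9 CPM in cKO. B cell and plasma cell markers (3 of 10 rose) summed to 428 and 513 CPM and to 662 and 777 CPM. Most of these sums was Jchain, with 322 and 385 CPM in WT and 525 and 536 CPM in cKO. CD8 T and NK cell markers (8 of 9 rose) summed to 159 and 187 CPM and to 257 and 268 CPM. Dendritic cell markers (5 of 8 rose) summed to 243 and 252 CPM and to 341 and 332 CPM.

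Within the cKO group some of these lists ran against the replication genes and others with them. Neutrophil, progenitor, basophil, B cell and CD8 T and NK cell sums were higher in cKO 2 than in cKO 1, whereas 36 of 43 replication members and the sums of the dendritic cell and macrophage markers were higher in cKO 1. Within WT, all of these sums and 37 of the 43 members were higher in WT 2. Macrophage and monocyte markers (1 of 10 rose) summed to 603 and 829 CPM in WT and 1002 and 823 CPM in cKO, with a median log2 fold change of -0.28. All 10 had the members' order within both groups, higher in WT 2 than WT 1 and in cKO 1 than cKO 2. The one that rose was Lyz2, and without it the other 9, of which 8 had negative values, summed to 343 and 543 CPM in WT and 418 and 279 CPM in cKO. Erythroid markers summed to 679 and 243 CPM in WT and 183 and 525 CPM in cKO, lower in WT 2 and cKO 1, and 0 of 9 tested rose. Treg and T cell markers summed to 6974 and 6160 CPM in WT and 5379 and 6142 CPM in cKO. Of these 12 markers, 1 was higher and 6 were lower, beside 16.5% and 15.1% of all tested genes. The part of other cells in the rise of the replication genes was not tested.

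**Figure D5:**
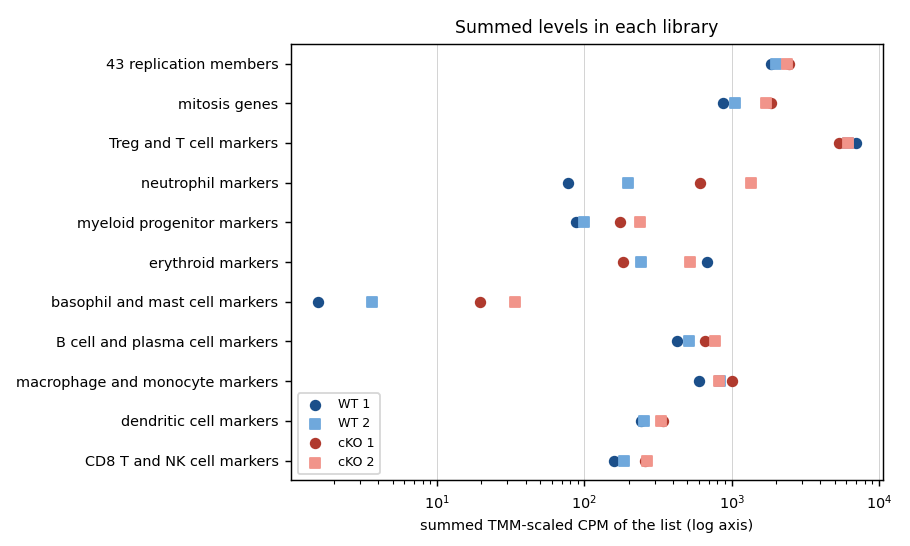
Summed TMM-scaled CPM (log axis) of the 43 replication members, the mitosis genes and 9 lists of cell type markers in each library. The replication members lie between 1847 and 2438 CPM, with cKO 1 the highest, while the neutrophil markers run from 77.9 CPM in WT 1 to 1353 CPM in cKO 2.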

How the data were processed

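What the authors deposited is 1 table with the raw read count of every gene in each of 4 libraries, in whole numbers. The submitters' processing notes name mm10 as the genome build. For the aligner, the counting tool, its annotation and its use of strand, the entry is not given in the sources used here. Genes were kept with filterByExpr (minimum count 10, minimum total 15), scaled by TMM and tested with the quasi-likelihood functions glmQLFit and glmQLFTest (edgeR 4.0.16, R 4.3.3). Group was the only term. The p-values (2-sided) were adjusted by Benjamini-Hochberg across the 13861 genes that passed the filter, and 0.05 was the threshold. SE was obtained as |log2 fold change|/sqrt(F). The test was checked on simulated counts. RPKM used the exon union of GENCODE M21, gene coordinates came from RefSeq GRCm38.p6 (43 of 43 members matched by gene number), both on the assembly of mm10. Of the members, 14 share exon bases with another annotated gene on the opposite strand. The correlation of deviations from the group means between same-numbered libraries was -0.436, which gave no sign of pairing by number. With 2 libraries per group this value cannot exclude such pairing, because each group has only 1 direction of deviation. Replicate libraries differed by more than sampling noise (chi-square per degree of freedom 10.0 and 9.31).

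The members and lists were chosen with earlier results of these data known. Named are the members, Kmt2d and Foxp3, with values per library for the largest, the smallest and the uncalled of each role, and up to 4 genes of each other list with the smallest p, with uncalled or opposite ones where few. Gse1, Vps35, Ints8, Mpo, Elane, Lyz2 and E2f3 to E2f6, and further members given per library, were named after their values were seen. The same holds for Cdkn1a, Cdkn1b, Cdkn2a, Cdkn2b, Cdkn2c, Jchain, Gm10143 and Tmem258. Alternatives were no filter, a filter of 5 CPM in 2 libraries, scaling by RLE or the upper quartile, DESeq2 1.42.0, a replicate block and leaving out each library. Some genes that the naming rule selects are not reported here.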

Additional observations from a re-analysis of the deposited data

How the results depend on the processing

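The number of replication members that rose was 32 with RLE scaling, 34 with upper-quartile scaling, 26 with DESeq2, 32 without a filter and 35 with a filter of 5 CPM in 2 libraries (42 of 43 tested), and 21 to 30 when 1 library was left out. Cdt1 fell in each of these fits. The number of all genes called higher moved as well. It was 2292 of 13861 in the main fit, 2133 with RLE and 2546 with upper-quartile scaling. DESeq2 called 1301 of 14373 higher, the fit without a filter 2375 of 20837 and the filter of 5 CPM 1768 of 10066. With 1 library left out, the median log2 fold change of the members was 0.40 to 0.48. All genes called numbered 4380, 2876 with DESeq2 and 1869 to 2747 with 1 library left out. Of the other replication genes, 35 rose, 23 with DESeq2 and 15 to 26 with 1 library left out, and 2 fell, 1 with upper-quartile scaling and 1 to 2 with 1 library left out. Leaving out a library leaves 1 in its group, which is then assumed to vary like the other group. The sign turned for 3 named genes, none of them called: Gins4 (0.019 with upper-quartile scaling, -0.083 to 0.061 with 1 library left out), Nasp (-0.20 to 0.034) and Cenpa (-0.19 to 0.072). Of the 10 members not called, 8 were called in at least 1 alternative if the crossed pairs described below are counted. Orc1, Orc6, Gins1, Rpa1 and Fen1 were called only with those pairs, and Pold1, Rfc3 and Rfc4 also in other alternatives. The cause of these changes was not tested. The median log2 fold change of all genes was -0.02 with RLE and 0.03 with upper-quartile scaling.

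The libraries share only a number, so the replicate block is given here. With it, 25 members rose and 1 fell, and 20 other replication genes rose and 1 fell. Over all genes it called 2292, of which 1151 were higher and 1141 lower. The block removed the calls of the members Mcm4, Gins2, Gins3, Pola2, Prim1, Rfc5 and Rpa2. Among the other named genes, Topbp1, Rpa3, Chtf18, Tk2 and Kmt2d lost theirs. A block of crossed pairs, chosen after seeing the data, called 6713 genes (3520 higher and 3193 lower), with 39 members higher and 2 lower. All members were detected, since the lowest level, 2.36 CPM for E2f7, is far above the 0.0864 CPM that 3 counts correspond to. Precision still differed with depth. Orc1, with 111 to 163 counts per library, had a log2 fold change of 0.43 (SE 0.15) and was not called. Mcm2, with 2837 to 4006 counts, was called at 0.42 (SE 0.06).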

Other observations

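Genes upstream of S phase entry, both drivers and inhibitors, were more often called higher than lower. Of 22 G1 cyclins, kinases, inhibitors and pocket proteins tested, 9 rose, 2 fell and 11 were not called, with a median log2 fold change of 0.20. Over all tested genes, 16.5% were called higher and 15.1% lower. Cdk6, a kinase partner of D cyclins, rose from 86.1 ± 0.441 to 148 ± 10.2 CPM (SD, n = 2), a log2 fold change of 0.78 (SE 0.06, adjusted p in edgeR 0.00321). The cyclin gene Ccnd1 rose by 0.84 (SE 0.07) and Cdk2, the partner of cyclin E, by 0.63 (SE 0.07). The inhibitor gene Cdkn1c rose from 2.38 ± 0.0233 to 9.46 ± 2.59 CPM, or by 1.99 on the log2 scale (SE 0.22). The inhibitor genes Cdkn2a and Cdkn2c rose too, by 2.48 (SE 0.31) and 0.83 (SE 0.12). Cdkn2a had the largest value of the list, at only 8 to 50 counts per library. The inhibitor genes Cdkn1a, Cdkn1b and Cdkn2b were not called. The 2 that fell were Rbl2, a relative of the retinoblastoma gene known for repressing E2F targets in resting cells (-0.40, SE 0.06, adjusted p in edgeR 0.00754), and the inhibitor gene Cdkn2d (-0.39, SE 0.07, adjusted p in edgeR 0.0126, and 0.0506 without cKO 1).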
